A study of Mus musculus with 14 samples.

Results

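Iron handling genes were followed in the epididymal fat pad of male mice. The 10 listed genes are Tfr2, Tfrc, Trf, Hfe, Slc11a1, Slc11a2, Slc40a1, Cp, Steap4 and Hmox1, and each was read from the probe set that carries its symbol alone. This found 9 of the 10 among 19937 genes with a symbol; Slc11a1 had no such probe set and is not analysed here. Each of the 9 had 1 probe set, so no measured value had to choose between sets, but the list itself was chosen by earlier results on these arrays, in which the diet and genotype differences of Tfr2 stood out. The p-values of the members therefore describe these arrays and are no independent support. Gene expression was measured on 14 Affymetrix whole-transcript arrays, each labelled as a biological replicate. There were 4 EKO arrays on Western diet, 4 EKO arrays on normal diet, 3 wild type (WT) arrays on Western diet and 3 WT arrays on normal diet. EKO is the labels' name for a genotype tied to apolipoprotein E, and both genotypes were on C57BL6/J. All mice ate their diet for 24 weeks from 8 weeks of age; the Western diet (HFD in the labels) held 42% anhydrous milk fat. Values are log2 and normalized by RMA, so a difference of 1 is a doubling, and levels of different genes cannot be set against each other. The number of arrays limits the precision.

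Cells take up iron that is bound to the plasma carrier transferrin through transferrin receptor 1, export it through ferroportin and store the rest in ferritin. A second receptor, encoded by Tfr2, is known mainly from hepatocytes and erythroid precursors, where it takes part, with HFE, in sensing transferrin-bound iron and in the control of the liver hormone hepcidin. Macrophages are known to recycle iron from heme through heme oxygenase 1, and macrophages of obese fat are known to differ in iron content. The tissue is a mixture of cells, so fewer cells of a type and less RNA per cell cannot be told apart.

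One array stands apart in a way that bears on these genes. WT replicate 1 on Western diet had an albumin (Alb) level of 12.96, against 7.75 to 9.20 on the other 13 arrays, and it was the highest of all 14 for 8 of 10 measured hepatocyte genes. The mean of the 10 hepatocyte genes was 9.29 on that array, and 7.13 and 7.11 on WT replicates 2 and 3 on Western diet. Hepcidin (Hamp) stood at 7.22 there and at 5.46 to 6.19 elsewhere, and the heme carrier gene Hpx at 8.94 against 7.47 to 8.04. For each member, and for the other iron genes that passed, 1 or more differences are therefore also given without this array. Markers of the labelled tissue were present: 10 adipocyte genes averaged 12.95 to 13.24 over the 14 arrays, and 7 epididymis genes 6.34 to 6.75, near the array background. That background, the mean of 1204 olfactory and vomeronasal receptor rows, was 6.75 to 6.84 on 5 arrays and 6.29 to 6.56 on the other 9. Apoe was 9.46 to 10.26 in EKO arrays and 13.13 to 13.65 in WT arrays, so all genotype labels matched.

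Tfr2 was the member with the largest change. It was about 4.33-fold higher on Western diet in WT fat, and it stayed low in EKO fat on both diets. The sequence before its first annotated start is shown beside that of Hfe, the other member of the sensing pair that was lower in EKO fat on Western diet, and that of Tfrc, which did not pass in any comparison. All are from RefSeq on GRCm38.p6, which was not matched to the array's build, are read 5′ to 3′ along the gene and end at the base before the annotated gene. Capitals mark motif matches on either strand.
Tfr2, chr5:137569590-137569821, plus strand: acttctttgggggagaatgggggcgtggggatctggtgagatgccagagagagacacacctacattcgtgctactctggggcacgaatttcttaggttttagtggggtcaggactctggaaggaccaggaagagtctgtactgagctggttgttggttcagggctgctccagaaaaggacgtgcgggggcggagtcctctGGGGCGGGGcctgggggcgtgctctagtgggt
Hfe, chr13:23710855-23711104, minus strand: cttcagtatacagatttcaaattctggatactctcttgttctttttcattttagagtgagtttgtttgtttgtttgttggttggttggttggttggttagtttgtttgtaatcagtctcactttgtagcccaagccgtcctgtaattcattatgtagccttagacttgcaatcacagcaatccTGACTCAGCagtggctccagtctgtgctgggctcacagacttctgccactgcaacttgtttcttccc
Tfrc, chr16:32608646-32608895, plus strand: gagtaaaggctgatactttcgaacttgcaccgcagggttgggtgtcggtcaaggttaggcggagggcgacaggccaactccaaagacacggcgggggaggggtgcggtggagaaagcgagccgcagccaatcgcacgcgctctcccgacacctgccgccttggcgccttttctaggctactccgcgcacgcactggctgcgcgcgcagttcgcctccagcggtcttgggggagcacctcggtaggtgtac
The motifs searched were the antioxidant response core TGACNNNGC, the PU.1 core GAGGAAGT, the GATA site AGATAA, the GC box GGGGCGGGG and a consensus NF-kB site. Tfr2 held 1 GC box, a motif found in 8.39% of 21982 promoter windows of 200 bases. Hfe held 1 antioxidant response core, which 8.3% of the windows hold. The Tfrc stretch matched none of the 5. The other motifs occurred in 8.55% (GATA), 2.07% (PU.1) and 0.114% (NF-kB) of the windows. A match describes these letters only. RefSeq promoter entries were held for 6 of the 10 listed genes.

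**Figure D1:**
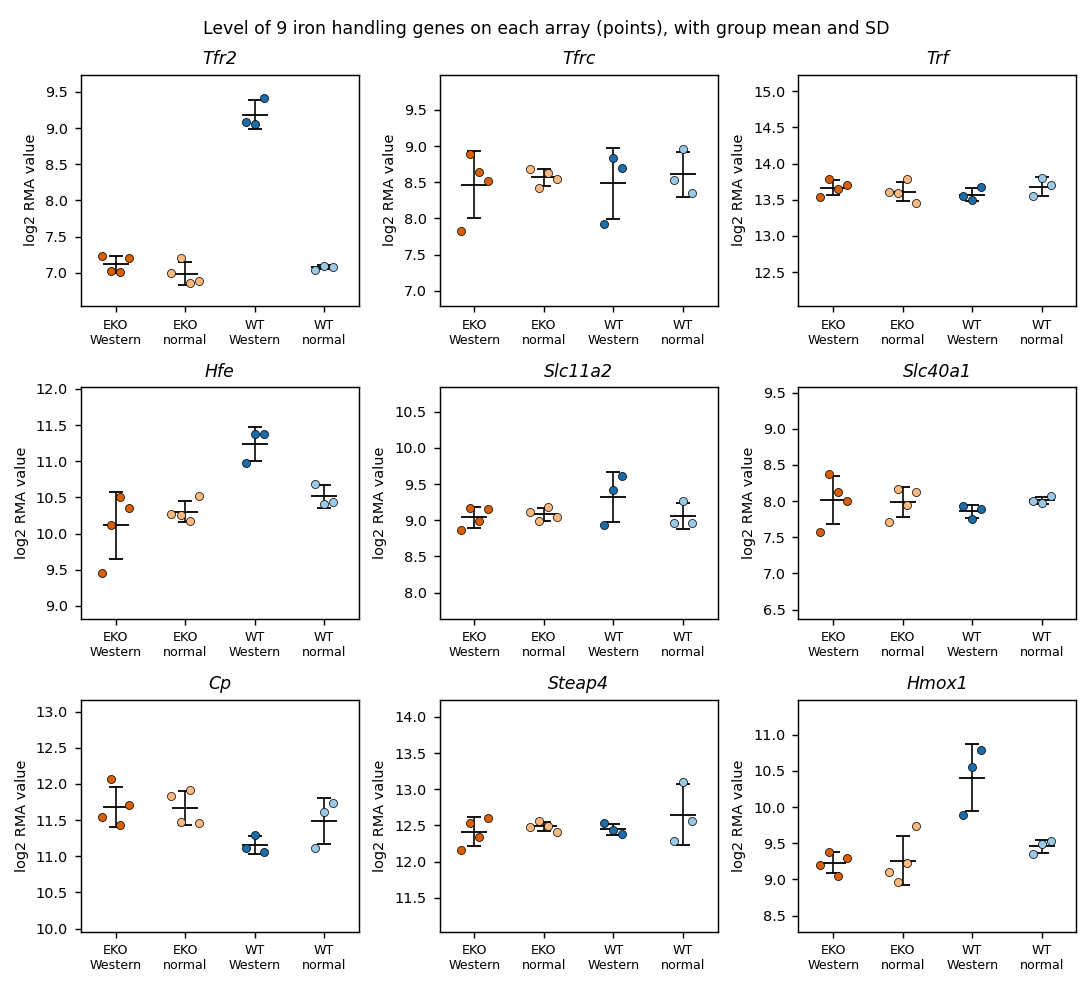
Each panel plots 1 gene, with the log2 RMA value on the vertical axis (a span of 3.2 log2 units in every panel) and the groups on the horizontal axis. Points are arrays, and bars are the group mean and SD. Tfr2 lies at 9.05 to 9.42 in WT fat on Western diet and at 6.86 to 7.23 on the other 11 arrays; Hfe and Hmox1 are also highest in WT fat on Western diet.

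Tfr2 (probe set 10526630) stood at 7.23, 7.02, 7.01 and 7.21 in EKO fat on Western diet and at 6.997, 7.21, 6.86 and 6.88 in EKO fat on normal diet. In WT fat it stood at 9.09, 9.05 and 9.42 on Western diet, against 7.04, 7.10 and 7.08 on normal diet. The 3 WT arrays on Western diet were high and the other 11 low, with a gap of 1.82 between the sets. The low arrays, at 6.86 to 7.23, lay near the highest array background of 6.84. The array with high liver genes held the middle of the 3 high values. On the other pair the mean of the 10 hepatocyte genes was 7.13 and 7.11, within the 7.08 to 7.42 of the other groups. Single genes differed in direction. Alb, at 8.18 and 7.75, lay below the 8.37 to 9.20 of the 11 arrays of the other groups. Ahsg, at 7.187 and 7.191, lay above their 6.64 to 7.12. The diet difference in WT was 2.11 ± 0.12 (log2 fold change ± SE; limma adjusted p = 5.33e-07, n = 3 and 3), the smallest p among the 19937 genes. Without the array with high liver genes it was 2.16 ± 0.13, adjusted p = 1.12e-06.

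In EKO fat the diet difference of Tfr2 was 0.13 ± 0.10, with a 95% interval of -0.09 to 0.35 (adjusted p = 0.946, n = 4 and 4). The diet effect in EKO was thus lower than that in WT by 1.98 ± 0.15 on the log2 scale (interaction, adjusted p = 4.53e-05, n = 14), again the smallest p of all genes. Between genotypes on Western diet Tfr2 averaged 7.12 ± 0.12 in EKO fat and 9.19 ± 0.20 in WT fat (SD, n = 4 and 3), a log2 difference of -2.07 ± 0.11, adjusted p = 1.41e-07. On normal diet it averaged 6.99 ± 0.16 in EKO fat and 7.07 ± 0.03 in WT fat, a difference of -0.09 ± 0.11. The order of the 4 group means was thus WT on Western diet first, and the other 3, which overlapped, within 0.13 of each other. The comparisons within a diet share arrays with those within a genotype, so these values are not separate evidence.

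The 5 genes whose values ran closest to those of Tfr2 over the 14 arrays were Spc25, a kinetochore gene (Pearson r = 0.985, Spearman rho = 0.613), the proton channel gene Otop1 (0.982 and 0.719), the kinase gene Cdkl4 (0.978 and 0.644), the ubiquitin-like gene Ubd (0.971 and 0.793) and Rgs1, a regulator of G protein signalling in immune cells (0.968 and 0.635). These coefficients are a description of arrays that form a high set and a low set, with 3 of 14 arrays in the high one. The ranking left out predicted genes (Gm or Rik names) and olfactory and vomeronasal receptor genes. Taken as deviations from the group means, r fell to between 0.263 for Cdkl4 and 0.718 for Otop1. Spc25 shows the shape: it stood at 6.26 to 6.39 in EKO fat on Western diet, at 6.21 to 6.46 in EKO fat on normal diet, at 7.63 to 8.04 in WT fat on Western diet and at 6.21 to 6.45 in WT fat on normal diet.

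Tfrc encodes transferrin receptor 1, the receptor through which most cells import transferrin-bound iron. It did not pass in any comparison. Its level was 7.82, 8.89, 8.65 and 8.52 in EKO fat on Western diet and 8.69, 8.42, 8.62 and 8.55 in EKO fat on normal diet. In WT fat it was 7.92, 8.84 and 8.69 on Western diet, against 8.53, 8.96 and 8.36 on normal diet. Both Western groups held 1 low array, replicate 1 in each, and all groups overlapped. The log2 diet difference was -0.10 ± 0.22 in EKO (95% interval -0.58 to 0.38) and -0.13 ± 0.26 in WT (-0.68 to 0.42). Without the array with high liver genes the WT difference was 0.15 ± 0.24.

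Trf, which encodes transferrin itself, varied least of the 9. It lay between 13.54 and 13.78 in EKO fat on Western diet, between 13.46 and 13.78 in EKO fat on normal diet, between 13.50 and 13.67 in WT fat on Western diet and between 13.55 and 13.80 in WT fat on normal diet. The diet difference was 0.06 ± 0.09 in EKO (95% interval -0.13 to 0.25) and -0.11 ± 0.10 in WT (-0.33 to 0.11), and -0.10 ± 0.12 in WT without the array with high liver genes. No Trf comparison passed.

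Hfe encodes the MHC class I-like protein that binds transferrin receptor 1 and is mutated in hereditary haemochromatosis. It was lower in EKO than in WT fat on Western diet. The EKO levels on that diet were 9.46, 10.12, 10.51 and 10.36, against 10.97, 11.38 and 11.38 in WT fat. On normal diet they were 10.27, 10.26, 10.17 and 10.52 in EKO fat and 10.69, 10.41 and 10.44 in WT fat. Every WT array on Western diet lay above every other array. The genotype difference on Western diet was -1.13 ± 0.20, adjusted p = 0.00424 (n = 4 and 3), and without the array with high liver genes -1.27 ± 0.22, adjusted p = 0.00236. The diet difference in WT was 0.73 ± 0.21 and missed the threshold (adjusted p = 0.0605), although the groups did not overlap. It passed in 10 of 25 alternative settings, among them the array background as a block (adjusted p = 0.0379) and the fit without the array with high liver genes (0.87 ± 0.23, adjusted p = 0.0325). In EKO the diet difference was -0.19 ± 0.18, and the interaction of -0.92 ± 0.28 did not pass (adjusted p = 0.182).

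Hmox1 encodes heme oxygenase 1, which frees iron from heme and is induced by heme and oxidative stress. It rose with Western diet in WT fat. The levels were 9.20, 9.37, 9.04 and 9.30 in EKO fat on Western diet and 9.10, 8.97, 9.23 and 9.74 in EKO fat on normal diet. In WT fat they were 9.89, 10.55 and 10.79 on Western diet, against 9.35, 9.49 and 9.52 on normal diet. The WT arrays on Western diet lay above all others, and replicate 1 was the lowest of the 3. The diet difference in WT was 0.95 ± 0.21, adjusted p = 0.0158 (n = 3 and 3), and without replicate 1 on Western diet 1.21 ± 0.18, adjusted p = 0.00108. Leaving out the second WT array on normal diet ended the call (adjusted p = 0.0518). So did leaving out WT replicate 2 or 3 on Western diet (0.0686 and 0.0977) or fitting the WT arrays alone (0.0653). Between EKO and WT fat on Western diet Hmox1 differed by -1.18 ± 0.20, adjusted p = 0.00309. The diet difference in EKO was -0.03 ± 0.18, and the interaction of -0.98 ± 0.28 had an adjusted p = 0.147; without WT replicate 1 on Western diet the interaction was -1.24 ± 0.23 and passed (adjusted p = 0.0124).

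Slc11a2 encodes DMT1, which carries ferrous iron across the endosomal membrane. It stood at 8.86 to 9.17 in EKO fat on Western diet, at 8.99 to 9.18 in EKO fat on normal diet, at 8.94, 9.42 and 9.61 in WT fat on Western diet and at 8.96, 9.27 and 8.96 in WT fat on normal diet. The WT diet difference of 0.26 ± 0.15 did not pass (adjusted p = 0.455). It was 0.45 ± 0.13 and passed (adjusted p = 0.0457) without WT replicate 1 on Western diet, where Slc11a2 was the lowest of the 3. That array had high liver genes and also the highest background of the 3. For EKO against WT on Western diet the difference was -0.28 ± 0.14 (adjusted p = 0.299) with that array. Without it the difference was -0.47 ± 0.12 and passed (adjusted p = 0.0234).

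Slc40a1 and Cp did not pass in any comparison. Slc40a1 encodes ferroportin, the iron exporter. Its level was 7.57, 8.37, 8.13 and 8.00 in EKO fat on Western diet and 7.71 to 8.17 in EKO fat on normal diet. In WT fat it was 7.93, 7.76 and 7.89 on Western diet, against 8.00, 7.97 and 8.07 on normal diet. The WT groups did not overlap, but the difference of -0.16 ± 0.16 had an adjusted p = 0.796, and was -0.19 ± 0.19 without the array with high liver genes. Cp encodes ceruloplasmin, the ferroxidase that loads exported iron onto transferrin. It averaged 11.68 ± 0.28 in EKO fat and 11.16 ± 0.13 in WT fat on Western diet (SD, n = 4 and 3). The 4 EKO levels of 11.55, 12.06, 11.42 and 11.70 lay above the WT levels of 11.12, 11.30 and 11.05. The difference of 0.53 ± 0.17 missed the threshold (adjusted p = 0.0945). Without the array with high liver genes it was 0.51 ± 0.20. It passed in 4 of 25 alternatives, among them at 0.58 ± 0.13 with the array background as a block (adjusted p = 0.0115) and at 0.71 ± 0.17 in the arrays of lower background (adjusted p = 0.0357).

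Steap4 encodes a metalloreductase of adipocytes that reduces ferric iron. It did not pass in any comparison. It lay between 12.16 and 12.60 in EKO fat on Western diet, between 12.41 and 12.57 in EKO fat on normal diet, between 12.38 and 12.53 in WT fat on Western diet and at 12.28, 13.10 and 12.56 in WT fat on normal diet. One WT array on normal diet was the highest of all 14. The diet difference was -0.08 ± 0.14 in EKO (95% interval -0.38 to 0.23) and -0.20 ± 0.16 in WT (-0.56 to 0.15), and -0.24 ± 0.19 in WT without the array with high liver genes.

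**Figure D2:**
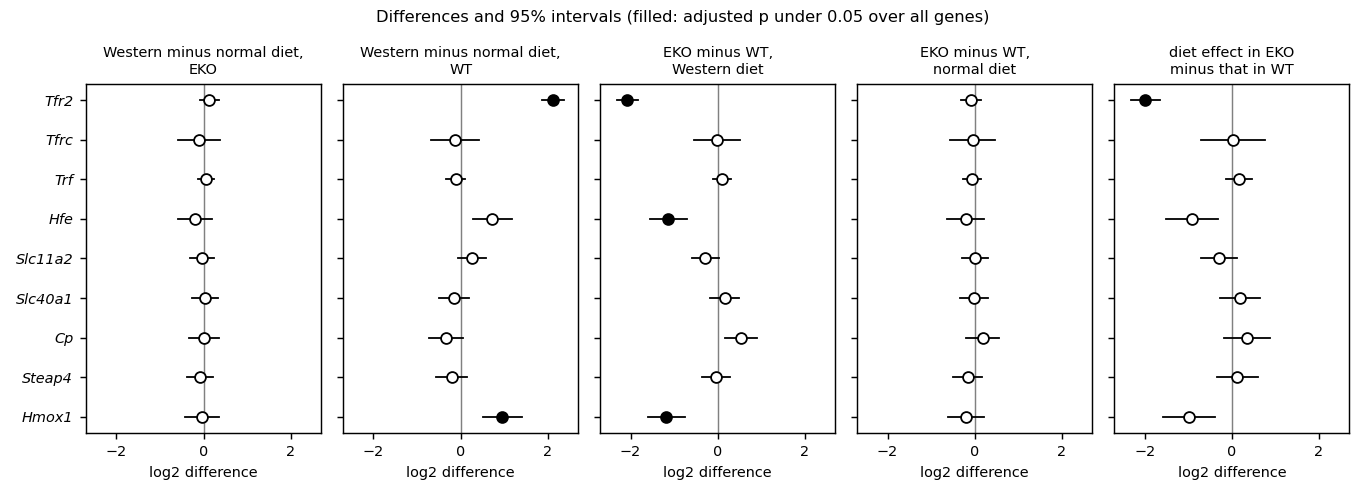
The horizontal axis of each panel is the log2 difference named above it, from limma; dots are estimates, lines 95% intervals, and filled dots passed at an adjusted p under 0.05 over all genes. Tfr2 and Hmox1 are filled for diet in WT, Tfr2, Hfe and Hmox1 for EKO minus WT on Western diet, and Tfr2 alone in the interaction; no member is filled for diet in EKO or for EKO minus WT on normal diet.

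Over the 9 members, 2 rose with Western diet in WT fat, where 5.49% of all genes passed in either direction, 3.19% rose and 2.3% fell. The median log2 difference of the members was -0.11, against -0.02 over all genes. The WT groups did not overlap for 4 of 9, with Tfr2, Hfe and Hmox1 higher and Slc40a1 lower; this was so for 20% of all genes, 8.77% higher and 11.3% lower. In EKO none of the 9 passed by limma, none had an unadjusted p under 0.05, and none had groups apart (2.56% of all genes did). Of all genes 0% passed, with 883 at an unadjusted p under 0.05 (members' median -0.03, all genes 0.01). For EKO against WT on Western diet 3 of 9 fell and none rose, where 5.69% of all genes passed, 1.64% rose and 4.05% fell. The median was -0.04 for the members and 0.03 for all genes, and groups did not overlap for 4 of 9 members (Cp higher; Tfr2, Hfe and Hmox1 lower) and 16.6% of all genes, 7.93% higher and 8.71% lower. On normal diet none of the 9 passed or had an unadjusted p under 0.05, and 0.00502% of all genes (Apoe) passed. No member's groups were apart there, against 1.72% of all genes. In the interaction 1 of 9 passed, Tfr2, which was lower; 0.482% of all genes passed, 0.145% higher and 0.336% lower. The members' median was 0.03, as was that of all genes.

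Markers of other cell types moved in the same comparisons. Of 12 macrophage genes, 7 rose and 1 fell with Western diet in WT fat, and 8 fell in EKO against WT fat on Western diet. Their mean ran from 9.51 to 9.95 in EKO fat on Western diet, from 9.24 to 10.10 in EKO fat on normal diet, from 10.41 to 10.84 in WT fat on Western diet and from 9.54 to 9.78 in WT fat on normal diet. All 12 were above background in each group. Of 9 genes of dividing cells, 8 rose with diet in WT and 9 fell in EKO against WT fat on Western diet; their mean was 7.22 to 7.49 in EKO fat on Western diet, 7.26 to 7.32 in EKO fat on normal diet, 7.79 to 8.64 in WT fat on Western diet and 7.24 to 7.33 in WT fat on normal diet. Over the 14 arrays the Pearson r with the macrophage mean was 0.935 for Hmox1, 0.78 for Hfe and 0.847 for Tfr2. Taken as deviations from the group means it was 0.823, 0.391 and -0.317. Outside the WT Western group the highest macrophage mean was that of EKO replicate 4 on normal diet (10.10), with Hmox1 at 9.74, Hfe at 10.52 and Tfr2 at 6.88. The next was EKO replicate 2 on Western diet (9.95), with Hmox1 at 9.37, Hfe at 10.12 and Tfr2 at 7.02. None of 6 measured erythroid genes passed in any comparison, with a mean of 7.24 to 7.53 in EKO and 7.20 to 7.48 in WT fat on Western diet. None of the 10 hepatocyte genes passed either. Of 8 mesothelium genes, 6 fell with diet in WT fat (median -1.04), and 1 was higher in EKO than in WT fat on Western diet (median 0.52). Their mean was 9.68 to 9.98 in EKO fat on Western diet, 9.47 to 10.05 in EKO fat on normal diet, 9.18 to 9.33 in WT fat on Western diet and 10.09 to 10.54 in WT fat on normal diet. Of 10 adipocyte genes, 2 fell with diet in WT (Adipoq and Slc2a4), and in EKO against WT fat on Western diet these 2 were higher and 1 (Lep) was lower. Of 8 neutrophil genes 1 rose with diet in WT. None of the mesothelium, adipocyte or neutrophil genes passed for diet in EKO. The part of any of these cells in the results on Tfr2, Hfe, Hmox1 and the other iron genes was not tested.

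**Figure D3:**
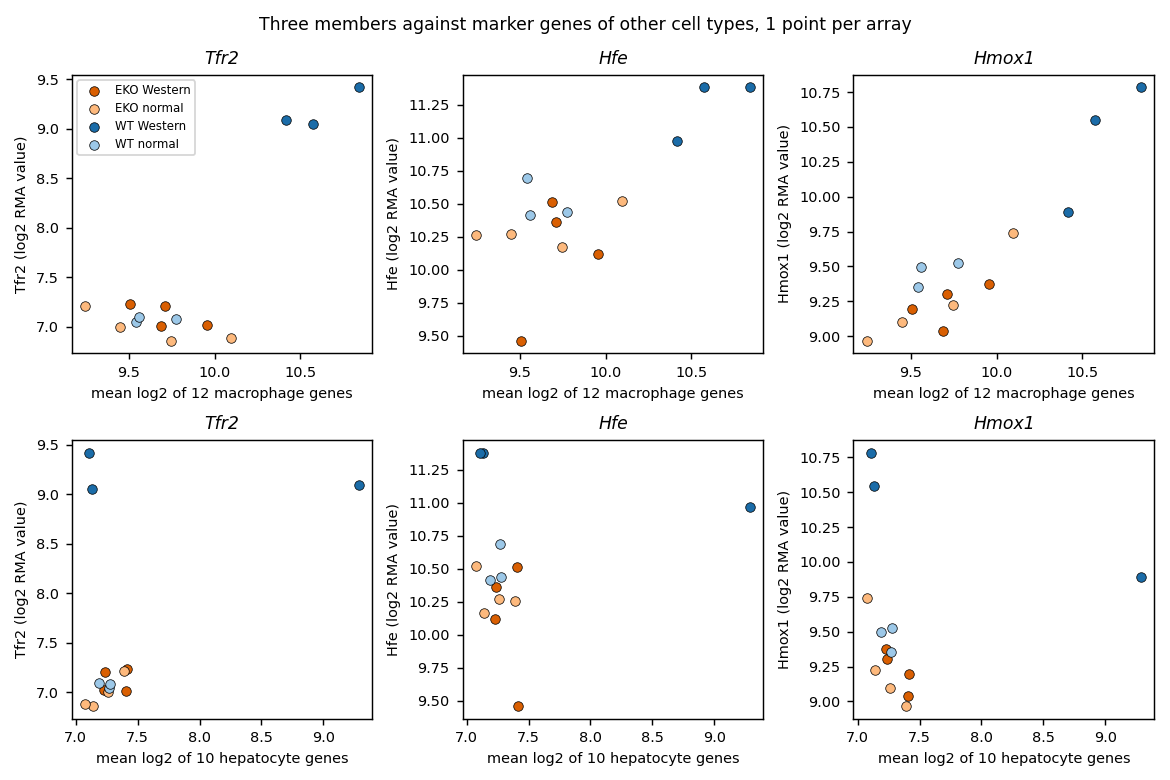
Each point is 1 array. The vertical axes are the log2 RMA values of Tfr2, Hfe and Hmox1; the horizontal axes are the mean log2 value of 12 macrophage genes (upper row) and of 10 hepatocyte genes (lower row). The WT arrays on Western diet lie to the right in the upper row, at 10.41 to 10.84, and the array at 9.29 in the lower row is WT replicate 1 on Western diet, whose Tfr2 of 9.09 lies beside that of the other pair.

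Beyond the members, 59 of 62 listed iron genes were measured. With Western diet in WT fat 2 rose and 4 fell, against 5.49% of all genes in either direction. In EKO none passed, and between genotypes on Western diet 1 rose and 5 fell, against 5.69% of all genes. None passed on normal diet or in the interaction by limma. At an unadjusted p under 0.05 there were 3 for diet in EKO (5.08% of the 59, against 4.43% of all genes), 2 on normal diet (3.39%, against 1.13%) and 10 in the interaction (16.9%, against 10.8%). The 6 of 59 called are 10.2% in each of the 2 comparisons with calls, and the medians of -0.02 for diet in WT and 0.005 for genotype on Western diet lay close to those of all genes (-0.02 and 0.03).

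None of 6 genes of iron storage passed in any comparison. Only for diet in WT did 1 of the 6 have an unadjusted limma p under 0.05 (16.7%, against 16.9% of all genes). Fth1, the ferritin heavy chain, averaged 13.57 ± 0.02 in EKO fat and 13.55 ± 0.06 in WT fat on Western diet. Ftl1, the light chain, averaged 9.97 ± 0.23 in EKO fat and 10.27 ± 0.27 in WT fat on that diet. Of 9 genes of hepcidin control 1 fell with diet in WT, Neo1, whose product neogenin binds the BMP co-receptor hemojuvelin, at 9.91, 10.08 and 9.95 on Western diet against 10.35, 10.76 and 10.89 on normal diet (-0.69 ± 0.14, adjusted p = 0.00911). Leaving out the third WT array on normal diet, or fitting WT arrays alone, ended that call, with adjusted p of up to 0.0587; without the array with high liver genes the difference was -0.66. Of 3 iron sensing genes 1 passed: Fbxl5, the iron-binding subunit that marks IRP2 for breakdown, was lower in EKO than in WT fat on Western diet, at 9.43, 9.78, 9.69 and 9.78 against 9.98, 10.28 and 10.32 (-0.52 ± 0.12, adjusted p = 0.0213). Its call ended without WT replicate 2 or 3 or EKO replicate 1 on Western diet, with adjusted p of up to 0.139; without the array with high liver genes the difference was -0.63.

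Among 13 reductases, oxidases and other transporters, 1 rose and 2 fell with diet in WT. Hephl1, which encodes a ferroxidase related to hephaestin and ceruloplasmin, stood between 6.85 and 7.76 in EKO fat on Western diet and at 6.38 to 6.99 in EKO fat on normal diet. In WT fat it stood at 7.66, 9.08 and 9.57 on Western diet, against 6.85, 6.42 and 6.77 on normal diet. The WT mean of 6.68 on normal diet lay below the highest array background of 6.84. With each normal diet array set to at least that background, the WT group means differed 3.81-fold. This is a point estimate and no lower limit on the rise. The fitted log2 difference was 2.09 ± 0.37 (limma adjusted p = 0.0041). Without the array with high liver genes the fitted diet difference was 2.64 and the genotype difference on Western diet -2.19, and over all 25 alternatives the diet difference ran from 1.69 to 2.73. It was lower in EKO than in WT fat on Western diet by 1.64 ± 0.34 on the log2 scale (adjusted p = 0.0124), with 1 EKO array above the lowest WT array. That call ended without WT replicate 2 or 3 on Western diet, with adjusted p of up to 0.0897, and the diet call ended with only WT arrays in the fit (0.0531). Steap2, a metalloreductase like Steap4, moved the other way. It was 8.60 to 9.13 in EKO fat on Western diet, 9.15 to 9.70 in EKO fat on normal diet, 8.01 to 8.32 in WT fat on Western diet and 9.18 to 9.55 in WT fat on normal diet. It fell with diet in WT by 1.22 ± 0.16 (adjusted p = 0.000708) and was higher in EKO than in WT fat on Western diet by 0.74 ± 0.15 (adjusted p = 0.0108). Both calls held in all 25 alternatives, but the mean of its 2 probe sets gave smaller differences of -0.67 and 0.42. The set that was not kept thus changed less than the one shown, and its own differences were not fitted. Without the array with high liver genes they were -1.13 and 0.65. Slc22a17, a receptor for the iron carrier lipocalin 2, fell with diet in WT by 0.32 ± 0.09 (adjusted p = 0.0472), but not in 15 of 25 alternatives, the fit without the array with high liver genes (-0.29, adjusted p = 0.0993) among them.

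None of 7 mitochondrial genes and none of 8 heme synthesis genes passed in any comparison. At an unadjusted limma p under 0.05 there were 0 of the mitochondrial genes. Of the heme synthesis genes there were 3 for diet in WT (37.5%, against 16.9% of all genes). For genotype on Western diet there was 1 (12.5%, against 19.3% of all genes). Among 13 genes of heme breakdown, carriage and scavenging, 1 rose and 1 fell with diet in WT. The heme transporter gene Slc48a1 rose by 0.41 ± 0.11 (adjusted p = 0.045), and Flvcr2, a member of the heme exporter family known to carry choline, fell by 0.47 ± 0.12 (adjusted p = 0.0336). Their calls ended in 14 and 6 of 25 alternatives; without the array with high liver genes the differences were 0.45 and -0.53. Between EKO and WT fat on Western diet 3 were lower. Hp, which encodes haptoglobin, the plasma carrier of free haemoglobin and a product of both liver and fat, stood at 11.66, 12.55, 12.09 and 12.23 in EKO fat, against 13.44, 13.74 and 13.73 in WT fat (-1.51 ± 0.21, adjusted p = 0.001). It was as low relative to WT without the array with high liver genes (-1.604, adjusted p = 0.0009) and passed in all 25 alternatives. Blvra, the biliverdin reductase that acts after heme oxygenase, differed by -0.57 ± 0.13 (adjusted p = 0.0185) and Slc48a1 by -0.41 ± 0.10 (adjusted p = 0.0346). Their calls ended in 4 and 8 of 25 alternatives, with adjusted p of up to 0.125 and 0.196; without the array with high liver genes the differences were -0.67 and -0.45.

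**Figure D4:**
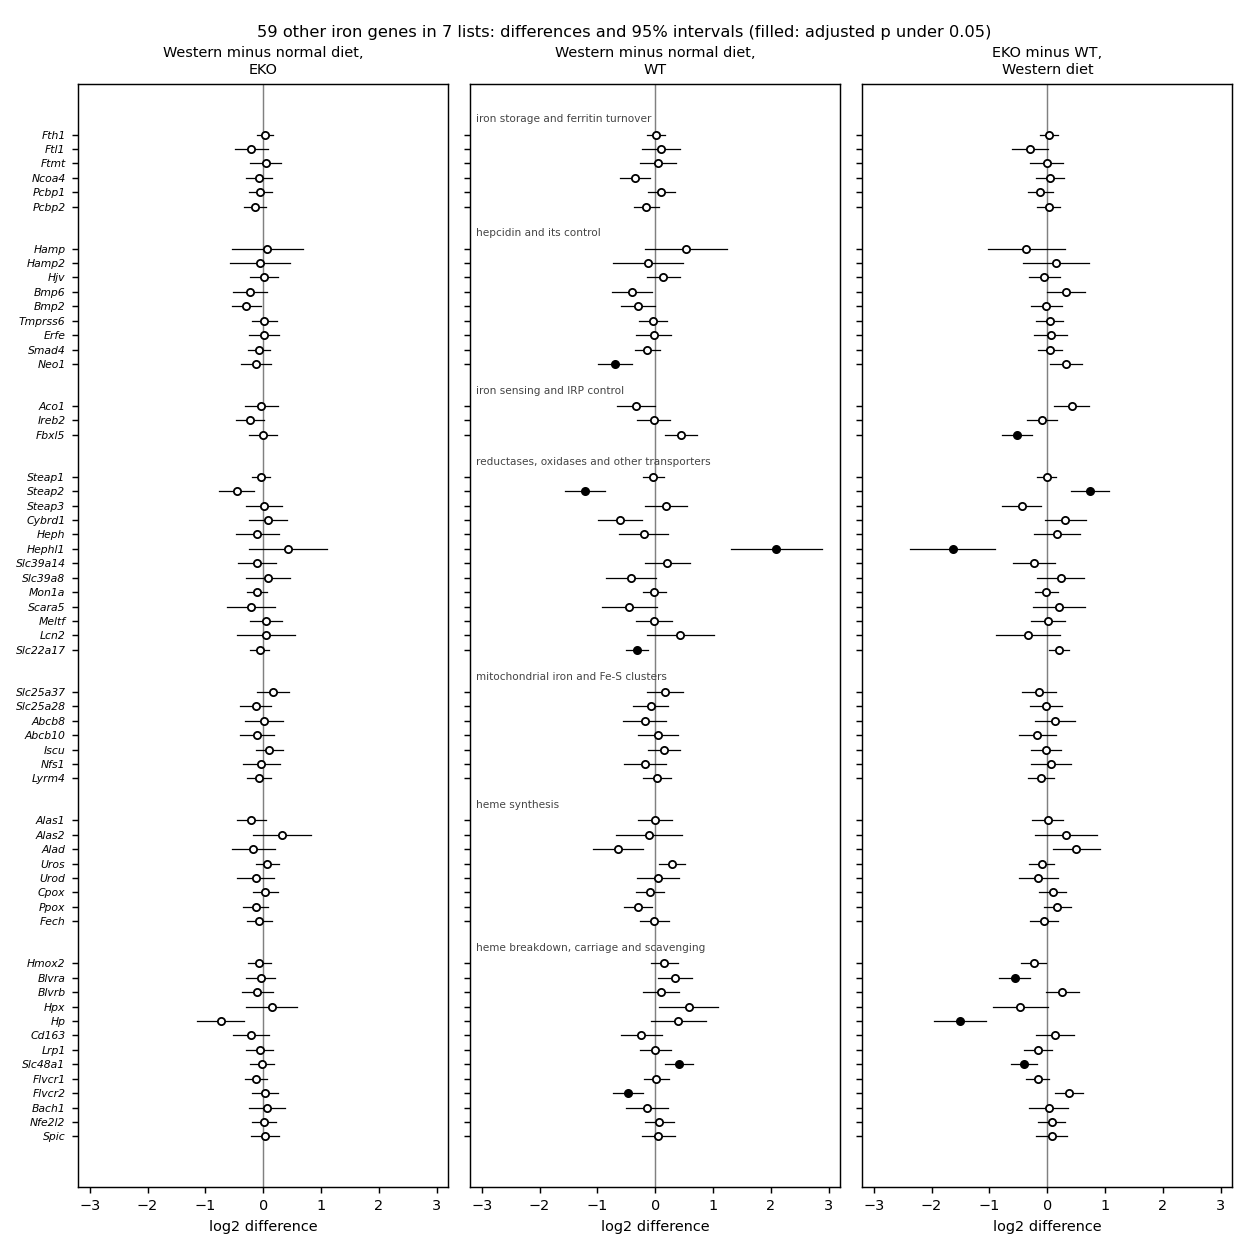
Rows are 59 iron genes other than the members, in 7 lists; the horizontal axes are the log2 difference for diet in EKO, for diet in WT and for EKO minus WT on Western diet. Dots are estimates with 95% intervals, filled where the adjusted p was under 0.05. No dot is filled for diet in EKO, 6 are filled for diet in WT and 6 for EKO minus WT on Western diet, with Hephl1, Hp and Steap2 the farthest from 0.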

How the data were processed

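RNA of epididymal fat pads was measured on 14 Affymetrix arrays. The authors deposited log2 values per probe set, which, per the submitters' processing notes, come from RMA (version and settings not given in the sources used here). RMA makes the arrays' value distributions alike, and can hide a change that most genes share. Of 34760 rows, 21640 have 1 symbol in the platform annotation, 1321 several and 11799 none; only the first were named. For 954 genes with several sets the set with the highest mean was kept, which left 19937 genes.

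A model with 1 mean per group was fitted to all arrays (limma 3.58.1, R 4.3.3; 10 residual degrees of freedom), with two-sided tests, Benjamini-Hochberg adjustment over all genes and a threshold of 0.05. The fitting code was tested on made-up data with known answers. The labels call the replicates biological. Replicates of a group correlated at 0.976 to 0.995.

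All members are named, of other iron genes those that passed (up to 4 a list), and the 5 genes closest to Tfr2. The 5 were taken with predicted genes and olfactory and vomeronasal receptors left out. Ftl1 and Fth1 were named for their role, outside that rule and after their values were seen. Members and lists were chosen with earlier results of these data known. Alternatives were median centring, quantile normalization, a trended robust prior, array weights, leaving out the dimmest 25% of genes, the mean of a gene's probe sets, all rows, only the groups compared, the background split as a block or its lower set alone, a replicate block, and each array left out. Figures used matplotlib 3.10.9.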

Additional observations from a re-analysis of the deposited data

Results flagged for a closer look

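The diet effect on Tfr2 differed between the genotypes by the interaction test: 0.13 ± 0.10 in EKO and 2.11 ± 0.12 in WT, a difference of -1.98 ± 0.15 (limma adjusted p = 4.53e-05, n = 14). It was past the threshold in all 24 alternatives, with values of -2.05 to -1.80. No sample of the 18 gene and group sets of 4 EKO arrays lay far enough from the others to be singled out.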

How the results depend on the processing

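Tfr2 kept its sign and its call for diet in WT (1.997 to 2.18), for EKO against WT on Western diet (-2.14 to -1.94) and in the interaction in every alternative run. Hfe and Hmox1 kept theirs for EKO against WT on Western diet in all 25. Members called for diet in WT numbered 2 in the main fit and 4 with array weights. They numbered 3 with quantile normalization, the dimmest 25% left out, the background block or the arrays of lower background. For EKO against WT on Western diet members called numbered 3, and 7 with array weights. That count was 4 with quantile normalization, the background block or the arrays of lower background. In the interaction the member count was 1 in the main fit. It was 2 with quantile normalization or the background block, and 3 with array weights or in the arrays of lower background. Other iron genes called for diet in WT numbered 6, and 11 with quantile normalization and 23 with array weights. They numbered 3 with all rows tested, 1 with only the groups compared, 7 with median centring and 5 with the trended robust prior. The count was 9 with the background block, 7 in the arrays of lower background and 8 with the replicate block. For EKO against WT on Western diet other iron genes called numbered 6, and 20 with array weights and 11 with the background block. With quantile normalization they numbered 12 (7 higher and 5 lower, against 1 and 5). They numbered 5 with all rows tested or in the arrays of lower background, and 7 with the replicate block. In the interaction they numbered 0, and 1, 11, 3 and 4 with quantile normalization, array weights, the background block and the arrays of lower background. Calls over all genes moved as well. For diet in WT they numbered 1094 in the main fit, 5224 with array weights, 1735 with quantile normalization and 2007 with the background block. In the same order they were 1134, 6789, 1845 and 2033 for EKO against WT on Western diet, and 96, 2338, 285 and 320 in the interaction. With only the groups compared 479 genes were called for diet in WT. The cause of these moves was not tested. For diet in EKO and for genotype on normal diet no member and no other iron gene was called in any alternative. Leaving out 1 array gave 1 to 4 members for diet in WT (4 without WT replicate 1 on Western diet; 1 without WT replicate 2 on normal diet or WT replicate 2 or 3 on Western diet), 3 to 4 for EKO against WT on Western diet and 1 to 2 in the interaction (2 without WT replicate 1 on Western diet). Fitting only the groups compared gives no interaction. Leaving out 1 array gave 2 to 6 other iron genes for diet in WT (2 without WT replicate 3 on normal diet), 2 to 8 for EKO against WT on Western diet (2 without WT replicate 2 or 3, 8 without replicate 1, on that diet) and 0 to 1 in the interaction (1 without WT replicate 1 on Western diet or EKO replicate 2 on normal diet). With the replicate number as a block 3 members were called for diet in WT, Hfe being added (adjusted p = 0.0436), and the other member counts did not move. Same-numbered arrays did not deviate together in every pair (correlations of deviations from -0.593 to 0.644), so the numbers were not taken as pairs.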
